A study of Homo sapiens with 4 samples.

Results

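The genes described here are 35 members of the pathways that repair DNA by homologous recombination and by mismatch repair, together with the kinases that signal the damage. They were picked by name for their known function, with earlier results of these data already known, and in both deposited transcript tables their entries were found by gene symbol. The series lists 53568 genes. Usable transcript values existed for 35 members with the precursor and 34 with the antimir. Every transcript of BRCA2 carries a failed status in the antimir table, so that gene has a value in the precursor comparison only.

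The study measured RNA in HT29, an established line of human colorectal adenocarcinoma cells, after changing the level of the microRNA miR-23b. There were 4 groups with 1 library each. The first was transfected with a miR-23b precursor, which adds the microRNA, and was set against cells given a precursor control. The third was transfected with an antimir, which blocks the microRNA, and was set against cells given an antimir control. All 4 cultures received the oligonucleotide at a dose the labels write as 50nm with a lipid transfection reagent, had their medium changed after 24 h and were lysed for RNA at 48 h. For all 4 the labels also give 90% confluency, 5% serum and passages 12 to 13. Each deposited table sets a treated column beside a column whose name ends in N, and that second column was taken as the control. With 1 library per group there is no measure of spread between cultures, so differences below are sizes without a test, and the authors' q-values compare 2 libraries and not 2 conditions.

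Homologous recombination repairs a broken chromosome by copying the intact sister: the ends are resected by MRE11, RAD50, NBN, RBBP8 and EXO1, BRCA1 and its partners act with PALB2 and BRCA2 on the single strands this leaves, and a further group of proteins, among them XRCC2, XRCC3 and RAD54L, helps strand exchange. The Fanconi core complex attaches ubiquitin to the FANCD2 and FANCI pair at stalled forks, ATM and ATR start the checkpoint, and MutS and MutL proteins correct replication errors. Many of these genes are transcribed mainly in cells that are about to replicate or are replicating their DNA, and several are known to be driven by E2F factors.

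MiR-23b recognises its targets mainly through its seed, so its mature sequence is shown with bases 2 to 8 in capitals (RefSeq, GRCh38.p14 chr9:95085265-95085287, plus strand).
hsa-miR-23b-3p: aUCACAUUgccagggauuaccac
The 7 bases that pair with this seed, AATGTGA, were looked for along the longest 3′ UTR that GENCODE 29 gives a gene, on the transcript strand. They occurred in 4 of the 35 members, which is 11.4%, against 18.4% of 19145 genes with a 3′ UTR. The 4 sites are shown because they are the places where the microRNA could pair with these messages. Each lies in a 3′ UTR and is given with the bases before it and the 1 base after it, with the pairing bases in capitals (GRCh38: FANCA chr16:89737732-89737738 minus, FANCG chr9:35074018-35074024 minus, FANCI chr15:89316476-89316482 plus, MRE11A chr11:94417813-94417819 minus).
FANCA: ggggacgacgatgacAATGTGAa
FANCG: ttcaccatcattaggAATGTGAc
FANCI: tgaaatgcctgagttAATGTGAa
MRE11A: attcaagcatttaggAATGTGAc
In FANCA and FANCI the site is followed by an A, which makes the longer, usually stronger form of a seed match. That form was in 2 of the 35 members, 5.71%, against 8.73% of all genes. A match of letters is a description of the sequence and not evidence of binding.

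The promoters of FANCD2 and XRCC2 are shown because, of the members that hold an E2F-type word, only these 2 were lower with the precursor and higher with the antimir by over 0.1 under both the summed and the length-weighted level used below. Both come from RefSeq (GRCh38.p14, chr3:10026187-10026486 plus for FANCD2 and chr7:152676092-152676391 minus for XRCC2), run from 250 bases before to 50 after the annotated start, and carry the match in capitals.
FANCD2 promoter: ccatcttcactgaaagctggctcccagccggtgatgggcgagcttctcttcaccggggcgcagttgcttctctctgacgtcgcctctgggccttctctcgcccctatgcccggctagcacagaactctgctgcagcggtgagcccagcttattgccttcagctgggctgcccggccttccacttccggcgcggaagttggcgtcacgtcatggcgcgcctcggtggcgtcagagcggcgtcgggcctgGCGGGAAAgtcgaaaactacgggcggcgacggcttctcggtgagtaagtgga
XRCC2 promoter: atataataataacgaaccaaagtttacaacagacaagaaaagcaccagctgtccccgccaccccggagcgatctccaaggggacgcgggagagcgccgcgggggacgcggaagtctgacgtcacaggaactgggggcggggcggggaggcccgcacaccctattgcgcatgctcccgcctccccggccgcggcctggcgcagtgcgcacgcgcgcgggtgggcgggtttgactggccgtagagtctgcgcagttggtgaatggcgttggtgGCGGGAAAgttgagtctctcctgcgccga
The words searched were TTTCCCGC, TTTCGCGC, TTTGCCGC and TTTGGCGC on both strands, and the capitals above are the first of them read on the opposite strand. Promoters were found for 32 of the 35 members, and 8 of the 32 (25.0%) held a word: XRCC2, FANCA, FANCC, FANCD2, EXO1, MSH3, MSH6 and PMS2. Over all genes in the table the share was 3.99%, and over all promoters 3.31%. The match says nothing about whether a factor was bound in these cells.

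All 4 libraries carried most of the 10 markers of colon epithelium searched. CDX1 was under 1 FPKM in all 4 and CEACAM5 was at 0.785 to 1.78. EPCAM, an epithelial adhesion protein, stood at 743, 689, 577 and 531 FPKM in the precursor, precursor control, antimir and antimir control libraries. Of 12 markers of other cell types only CD14 and CD68 passed a mean of 1 FPKM. FPKM, the deposited unit, is a fragment count scaled by transcript length and by library size, and a gene's level here is its sum over the gene's transcripts. Between 13908 and 16809 genes reached 1 FPKM in a library, and the members together took between 0.0369% and 0.0492% of the summed FPKM. A difference between 2 libraries is given on the log2(FPKM + 1) scale after subtracting the median difference of all genes with a mean of at least 1 FPKM. On this scale the differences of weakly expressed genes come out too small.

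With the precursor, most of the repair genes were slightly lower than in the precursor control. Of 35 members, 27 were below 0 and 8 above, with a median difference of -0.15, where 50.0% of all genes lie on each side by construction and 48.7% of protein-coding genes lay below 0. Added up, the members came to 1035 FPKM with the precursor and 1179.5 with its control. Much of that gap lay in transcripts under 300 bases, which held 134 and 201 FPKM, while protein-coding transcripts held 515 and 547. The differences were small: at 1.5-fold, 0 members were higher and 1 was lower, against a background of 3.36% of all genes higher and 3.32% lower, and 0.529% and 0.617% of protein-coding genes. At a lower threshold of 0.32 on the log2 scale, 0 members were higher and 8 lower, against 7.14% and 7.85% of all genes and 3.94% and 3.99% of protein-coding genes. The 8 were PMS2, BARD1, ATM, FANCD2, FANCA, XRCC2, FANCI and FANCM.

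With the antimir, most were slightly higher than in the antimir control. Of 34 members, 27 were above 0 and 7 below, with a median difference of 0.11, and 49.5% of protein-coding genes were above 0. Their summed level was 720.1 FPKM with the antimir and 666 in its control. None passed 1.5-fold in either direction, where 5.07% of all genes were higher and 2.90% lower, and 1.75% and 0.886% of protein-coding genes. At the lower threshold of 0.32, 6 members were higher (FANCD2, RAD51C, RAD50, MSH6, BRCA1 and XRCC2) and 1 was lower (BARD1), against 10.8% and 8.25% of all genes and 6.73% and 5.39% of protein-coding genes.

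**Figure D1:**
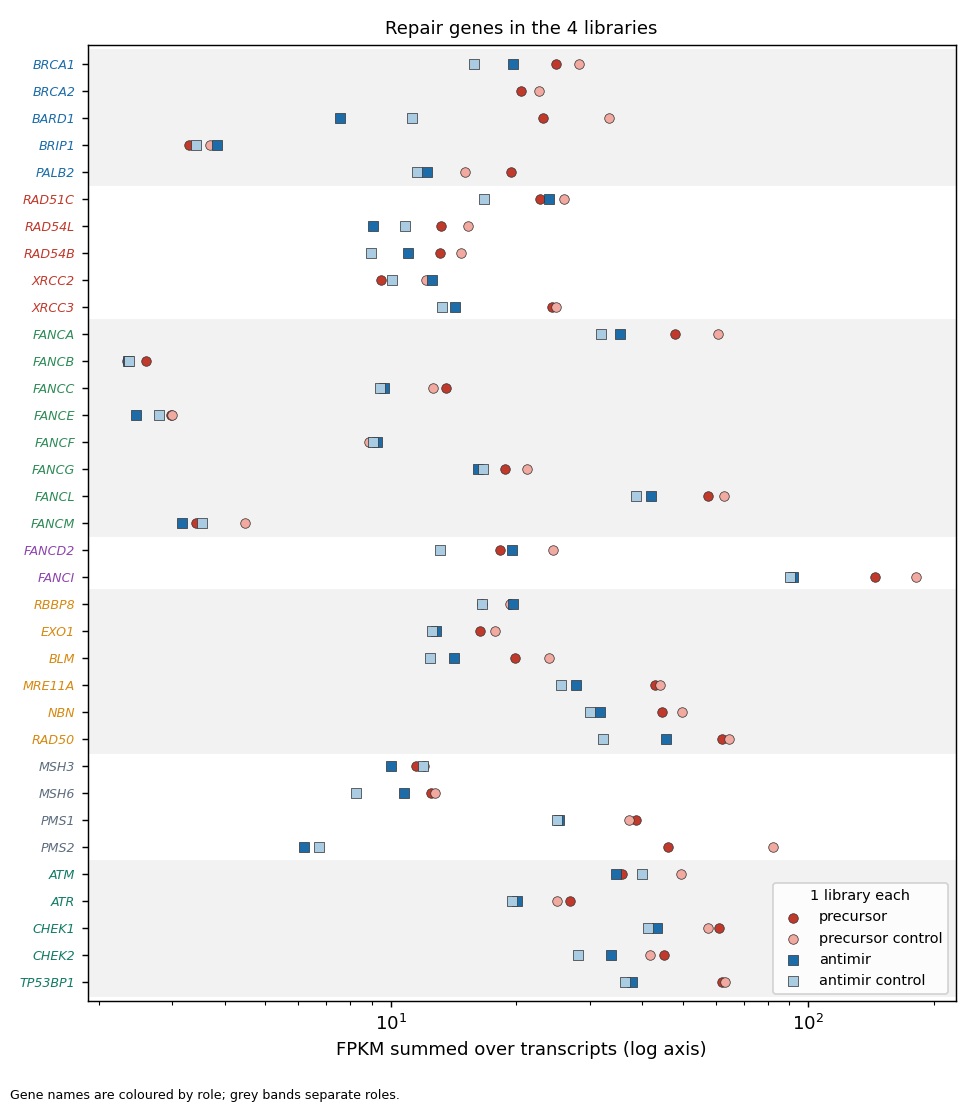
Summed FPKM of each member (log axis) in the 4 libraries, 1 point per library, with genes ordered by role. FANCI is the highest at 90.6 to 181 FPKM and FANCB and FANCE are the lowest, PMS2 and BARD1 differ most between the tables, and BRCA2 has no antimir values.

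The 2 control libraries give a measure of how far such values move without miR-23b being changed, although their tables were normalised separately and the levels can be set side by side only with that limit. Between the precursor control and the antimir control, the members' differences ran from -0.37 to 3.08 with a median of 0.22. At least 1.5-fold higher in the precursor control were 4 of 34 members, against 21.4% of all genes but only 721 of 11236 protein-coding genes. The median of the protein-coding genes was -0.07, so by sums the members as a set were shifted towards the precursor control relative to coding genes. PMS2 differed by 3.08 and BARD1 by 1.14 between these controls. The difference with the precursor was smaller in size than that between the controls in 24 of 34 members, and with the antimir in 22 of 34. The same count was not made over all genes, so whether the members are unusual in this cannot be said.

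In a sum of FPKM, a few fragments on a very short transcript weigh as much as many on a long one. A second level was therefore computed after these data had been seen. Each transcript's FPKM was weighted by its GENCODE 29 length relative to the gene's longest transcript. Where all transcripts of a gene have a length, this follows fragments per gene more closely. Transcripts without a length were left out, and 386 of the 422 member transcripts had one. In MSH6, RAD50 and BLM this dropped the transcript most abundant in the precursor control, at 37.9%, 39.8% and 19.9% of the sum. On this length-weighted scale 29 of 35 members were below 0 with the precursor (median -0.11) and 30 of 34 were above 0 with the antimir (median 0.14), while the median between the separately normalised controls was 0.02, in a range from -0.44 to 0.91. The difference was smaller in size than that between the controls in 15 of 34 members with the precursor and 14 of 34 with the antimir, again without a count over all genes. With the precursor 0 members passed 1.5-fold on this scale, against 1.70% of all genes higher and 1.64% lower. Of 10457 protein-coding genes 39 were higher and 26 lower. With the antimir MSH6 alone was at least 1.5-fold higher, against 2.85% of all genes, and 0 were lower, against 1.75%. Of 10214 protein-coding genes 122 were higher and 60 lower.

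Lower with the precursor and higher with the antimir were 19 of the 34 members with values in both tables (55.9%), against 28.4% of 13757 genes and 27.9% of protein-coding genes, and 0 members showed the reverse. Another 7 were lower in both comparisons and 8 higher in both. By length-weighted levels the same pattern held for 25 of 34 (73.5%, against 28.8% of protein-coding genes), and 1 showed the reverse, MSH3. Counting only transcripts that GENCODE 29 types as protein-coding, it held for 24 of 34 (70.6%, against 28.5% of protein-coding genes) and 3 showed the reverse. Related genes showed the pattern at shares between the members' and the background: of the other genes of these pathways, a list of 45, it was 20 of 44 by sums, 26 of 43 by length-weighted levels and 21 of 40 by coding transcripts, and of 20 genes of S phase and proliferation 11, 7 and 8. Whether these shares differ from the members' was not tested.

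**Figure D2:**
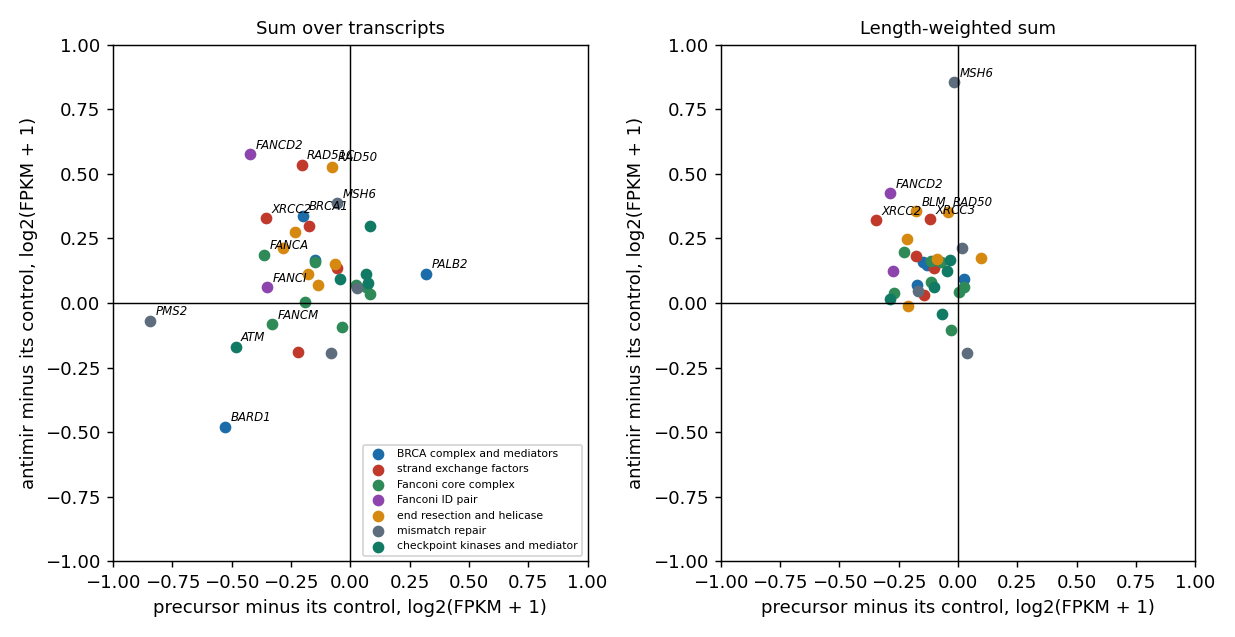
Each point is 1 member, coloured by role: its difference with the precursor on the horizontal axis and with the antimir on the vertical axis, both on the centred log2(FPKM + 1) scale, from transcript sums on the left and length-weighted sums on the right. The upper left region holds 19 members on the left and 25 on the right, and the points of PMS2 and BARD1 move towards 0 on the right.

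The RNAs of the Fanconi pair, whose proteins are ubiquitinated together at stalled forks, were lower with the precursor by both ways of computing the level. FANCD2 (chr3:10068098-10149915, hg19) stood at 18.3 FPKM with the precursor and 24.4 in its control, and at 19.5 with the antimir and 13.1 in its control. The precursor library was below its control and the antimir library above its own, and the antimir control was the lowest of the 4. The differences were -0.42 and 0.58, the second just inside 1.5-fold, and by length-weighted levels -0.29 and 0.42. The difference was spread over several transcripts. The most abundant one in the precursor table, a processed transcript of 449 bases (ENST00000470028), stood at 4.04, 5.74, 4.26 and 2.04 FPKM in the same order of libraries. The protein-coding ENST00000383807 of 5102 bases stood at 2.98, 3.10, 3.80 and 2.62. Of the FANCD2 transcripts, the authors' deposited table called only ENST00000287647, lower with the precursor (q = 1.1e-09). Between the separately normalised controls FANCD2 differed by 0.50, and by 0.37 by length-weighted level, more than with the precursor.

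FANCI (chr15:89787180-89878092, hg19) was the most abundant member in every library by both levels. It stood at 144 and 181 FPKM with the precursor and its control, and at 92.1 and 90.6 with the antimir and its control. The antimir pair was close and the precursor pair apart, with differences of -0.35 and 0.06, and by length-weighted levels -0.27 and 0.12. A processed transcript of 233 bases, ENST00000565522, made up 45.7 and 64.7 FPKM of the precursor pair but 9.45 and 15.9 of the antimir pair. That transcript was not called (q = 0.12), while 3 longer FANCI transcripts were called lower with the precursor in the authors' deposited table, among them ENST00000566895, a retained intron of 4663 bases, at 4.30 against 6.81 FPKM (q = 7.3e-06).

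The 8 members of the Fanconi core complex, the ubiquitin ligase for that pair, were spread around 0, with 5 below 0 with the precursor (median -0.09) and 6 above with the antimir (median 0.05). FANCA, the largest difference among them, stood at 47.9 and 60.9 FPKM in the precursor pair and 35.4 and 31.9 in the antimir pair. It was lower with the precursor by -0.36 and higher with the antimir by 0.19, and by length-weighted levels by -0.27 and 0.04. FANCM, the translocase that brings the complex to the fork, stood at 3.42 and 4.47 and at 3.17 and 3.54 FPKM. Its precursor difference of -0.33 was -0.11 by length-weighted level but -0.46 with coding transcripts alone, at 1.60 against 2.49 FPKM.

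FANCL, the subunit with the ligase activity, was the most abundant core member at 57.5, 62.8, 42.1 and 38.6 FPKM in the order precursor, precursor control, antimir and antimir control. FANCB and FANCE, both needed for the complex to assemble, were the least abundant: FANCB stood at 2.59, 2.34, 2.35 and 2.36 FPKM and FANCE at 2.97, 3.002, 2.45 and 2.78. By sums their libraries were nearly level, but FANCB's precursor difference of 0.08 became -0.23 when transcripts were weighted by length. With coding transcripts alone FANCB stood at 1.26 against 1.87 FPKM in the precursor pair, a difference of -0.38, and differed by 0.21 with the antimir. The authors called its transcript ENST00000324138 lower with the precursor. FANCC, FANCF and FANCG, the remaining core members, differed by between -0.19 and 0.07 in both comparisons.

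Among BRCA1 and its mediators, 4 of 5 were below 0 with the precursor and 3 of 4 above with the antimir. BRCA1, the ubiquitin ligase subunit that promotes resection, stood at 24.9 and 28.3 FPKM in the precursor pair and 19.7 and 15.8 in the antimir pair. It was lower with the precursor and higher with the antimir, by -0.20 and 0.34, and by length-weighted levels by -0.13 and 0.15. BRIP1, a helicase that binds BRCA1 and has a single transcript in the tables, stood at 3.28, 3.68, 3.84 and 3.42 FPKM. Its differences were -0.15 and 0.17, and with 1 transcript the choice of level hardly moved them.

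BARD1, the partner BRCA1 needs for its ligase activity, was the member whose values depended most on 1 short RNA after PMS2. It stood at 23.2 and 33.4 FPKM in the precursor pair and 7.55 and 11.2 in the antimir pair, lower in the treated library of each. A retained intron of 175 bases, ENST00000465841, made up 17.4 and 24.2 FPKM of the first pair and 1.26 and 5.87 of the second. The differences of -0.53 and -0.48 were -0.17 and 0.07 by length-weighted level, so that the antimir direction turned. With protein-coding transcripts alone they were -0.55 and 0.12.

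PALB2, the bridge between BRCA1 and BRCA2, was the only member above 0.3 with the precursor. It stood at 19.4 and 15.1 FPKM in the precursor pair and 12.2 and 11.5 in the antimir pair, a difference of 0.32 and 0.11. A nonsense-mediated decay transcript of 344 bases, ENST00000565038, accounted for 10.01 against 5.57 FPKM, while the 4003-base protein-coding ENST00000261584 stood at 5.81 and 5.92. By length-weighted level the precursor difference was 0.03, and with protein-coding transcripts alone it was -0.03. BRCA2, which acts on the resected single strands, stood at 20.5 and 22.7 FPKM in the precursor pair, a difference of -0.16 (-0.24 length-weighted). Its longest and more abundant coding transcript, ENST00000380152 of 11986 bases, stood at 4.37 against 4.83 FPKM and was not called in the authors' deposited table (q = 0.42). The same authors' deposited table called a minor coding transcript, ENST00000544455 of 10984 bases, lower at 0.50 against 1.12 FPKM (q = 4.2e-09). In the antimir table its 6 transcripts, all failed, sum to 20.0 and 13.3 FPKM.

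All 5 strand exchange factors were below 0 with the precursor (median -0.21) and 4 of 5 were above 0 with the antimir (median 0.30). By length-weighted levels the counts were 5 of 5 below and 5 of 5 above. XRCC2, which supports strand invasion (chr7:152341864-152373250, hg19), stood at 9.47 and 12.2 FPKM in the precursor pair and 12.6 and 10.1 in the antimir pair. The antimir library and the precursor control were the highest and the precursor library the lowest. The differences were -0.35 and 0.33, and weighting by length left them at -0.34 and 0.32, since its 2 transcripts are both long, at 3067 and 4728 bases. The longer one is typed as a processed transcript and not as coding. It made up 77.7% and 76.6% of the sum in the precursor pair and 80.2% and 79.6% in the antimir pair. The coding transcript stood at 2.11 against 2.85 FPKM and at 2.48 against 2.06, with differences of -0.34 and 0.23. The authors' deposited table called the longer one, ENST00000495707, lower with the precursor at 7.36 against 9.32 FPKM (q = 0.021).

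RAD51C, which works with XRCC3, stood at 22.8 and 26.02 FPKM in the precursor pair and 24.0 and 16.7 in the antimir pair. It was lower with the precursor by -0.21 and higher with the antimir by 0.53, which became -0.10 and 0.13 by length-weighted level. RAD54B, a translocase, stood at 13.1, 14.7, 10.97 and 8.99 FPKM, with differences of -0.17 and 0.30. XRCC3 stood at 24.3, 24.9, 14.3 and 13.3 FPKM, with differences of -0.06 and 0.14, and the authors' deposited table called 5 of its transcripts with the precursor, 2 higher and 3 lower. The differences of XRCC3 were larger by the other levels, at -0.12 and 0.32 length-weighted and -0.32 and 0.39 with coding transcripts alone. RAD54L, the other translocase, was lower in both comparisons by sums (-0.22 and -0.19) and at -0.14 and 0.03 by length-weighted level.

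All 6 members that resect ends or unwind the intermediates were below 0 with the precursor and above 0 with the antimir by sums, with medians of -0.16 and 0.18, and 5 of 6 each way by length-weighted level. BLM, the helicase that dissolves crossed intermediates, stood at 19.8 and 24.0 FPKM in the precursor pair and 14.2 and 12.4 in the antimir pair, with differences of -0.29 and 0.21. RAD50, the ATPase that holds the ends, stood at 62.2 and 64.6 and at 45.7 and 32.2 FPKM. Only its antimir pair lay apart, by 0.53 (0.35 length-weighted), with -0.08 in the precursor pair. RBBP8, also called CtIP, which starts resection, stood at 16.5, 19.3, 19.6 and 16.5 FPKM, with differences of -0.23 and 0.27 that length weighting left at -0.22 and 0.25. EXO1, the long-range nuclease, differed by -0.13 and 0.07.

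MRE11A and NBN, the nuclease and the sensor that complete the complex with RAD50, were close within each pair by sums, at -0.07 and 0.15 for MRE11A and -0.18 and 0.11 for NBN. Beneath the NBN sum, coding transcripts of similar length differed in opposite directions with the precursor: in the authors' deposited table ENST00000409330 of 4523 bases was called lower at 11.05 against 16.9 FPKM (q = 1.1e-06), and ENST00000265433 of 4666 bases higher at 6.45 against 1.58, with a listed q of 0. In the antimir pair the second stood at 5.79 and 2.92 FPKM, also higher with the treatment but not called. For MRE11A the same table called ENST00000323929, the longest coding transcript, higher at 6.41 against 3.50 FPKM (q = 1.1e-06) and 3 shorter coding transcripts lower. FANCL showed the same kind of exchange, with ENST00000403295 called lower at 16.6 against 21.9 FPKM (q = 0.011) and ENST00000233741 higher at 5.57 against 2.22 (q = 4.0e-08) in the authors' deposited table. In the antimir table the first of these stood at 5.31 and 0 FPKM and the second at 22.0 and 25.8, so how FANCL reads were divided between near-identical transcripts differed more between tables than within them.

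**Figure D3:**
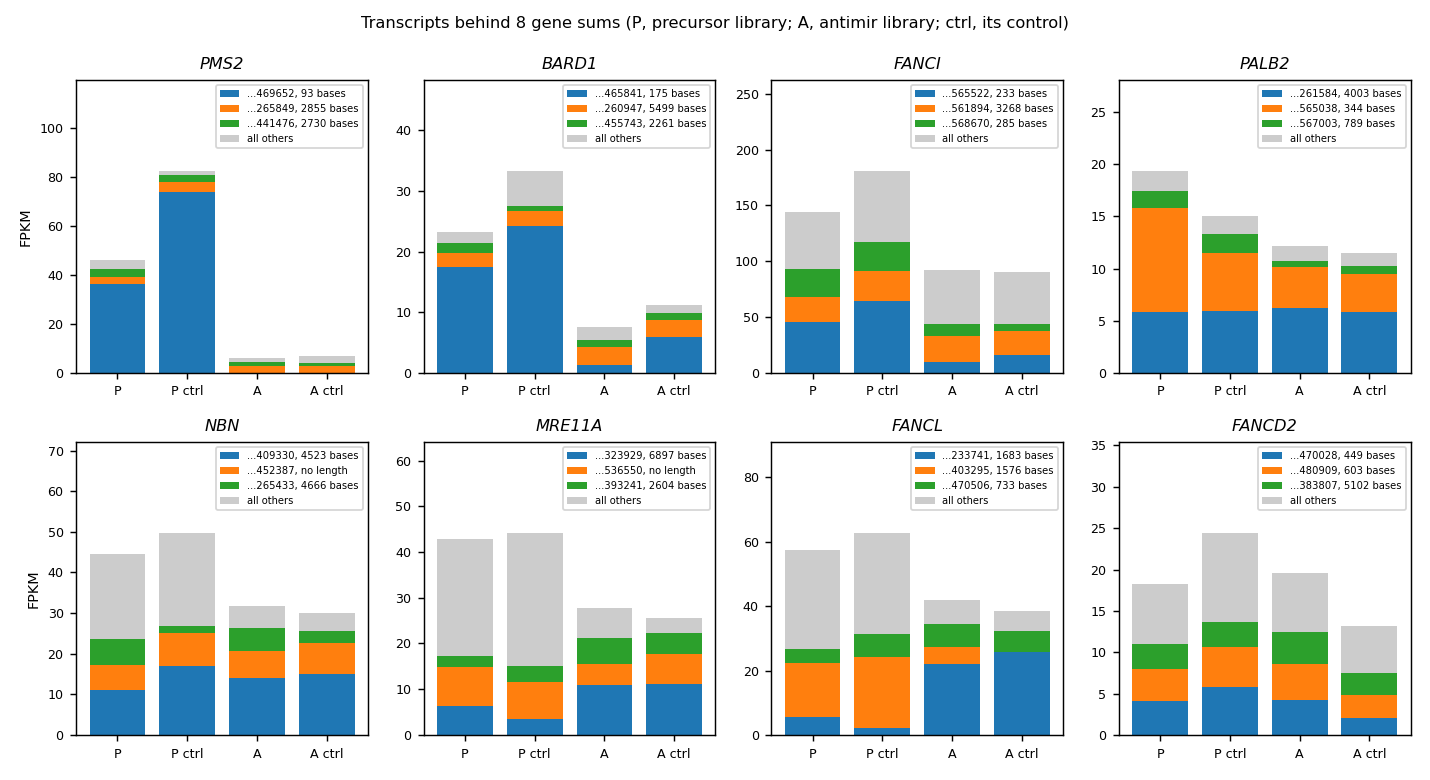
FPKM of the 3 most abundant transcripts (by mean over the 4 libraries) and of all others, stacked, for 8 members in the 4 libraries. The 93-base transcript fills most of the PMS2 bars in the precursor table and is at 0 in the antimir table, and the short transcripts of BARD1 and FANCI are also larger in the precursor table.

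The 4 mismatch repair members did not move as a group: 3 were below 0 with the precursor and 2 above 0 with the antimir, with medians of -0.07 and -0.0053. PMS2, the MutL subunit that nicks the faulty strand (chr7:6012870-6048756, hg19), was the only member past 1.5-fold in either comparison. It stood at 46.2 FPKM with the precursor and 82.5 in its control, and at 6.20 and 6.75 in the antimir pair. The precursor pair lay far above the antimir pair, and the precursor library below its control, a difference of -0.84. The precursor difference came from 1 processed transcript of 93 bases, ENST00000469652, at 36.1 against 73.7 FPKM. The other PMS2 transcripts, added up, were slightly higher with the precursor than in its control. The 93-base transcript was 78.1% and 89.3% of the sum and was listed at 0 in both antimir libraries. Its GENCODE 29 sequence is shown because the call rests on it.
PMS2 ENST00000469652: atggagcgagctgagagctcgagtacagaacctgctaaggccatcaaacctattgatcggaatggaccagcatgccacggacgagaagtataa
It shares runs of at least 50 bases with transcripts of the pseudogenes PMS2P1 and PMS2P7, so reads from them cannot be told apart along those runs. The authors' deposited table did not call this transcript (q = 0.72). It called the coding ENST00000265849 of 2855 bases lower, at 2.96 against 4.12 FPKM (q = 0.020), a transcript that stood at 2.95 and 2.97 in the antimir pair. The authors also called 2 other PMS2 transcripts, ENST00000382322 and ENST00000406569, in the opposite direction, higher with the precursor. Weighted by length, PMS2 differed by -0.17 with the precursor and 0.05 with the antimir.

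MSH6, the MutS subunit that recognises single mismatches, stood at 12.5 and 12.8 FPKM in the precursor pair and 10.8 and 8.24 in the antimir pair. By sums the antimir pair lay apart, by 0.39, and the precursor pair was level, at -0.05. By length-weighted level it was 2.13 FPKM with the antimir and 0.763 in its control, a difference of 0.86, and with coding transcripts alone 4.24 against 1.59, a difference of 1.05. Most of that was the 3930-base ENST00000540021 at 3.57 against 1.22 FPKM. The length-weighted and coding-only levels both leave out ENST00000446255, which has no length or type. It stood at 6.53 against 3.65 FPKM in the antimir pair, 60.6% and 44.3% of the sums. They also leave out ENST00000543270, at 0.00056 against 2.83 FPKM, the second being 34.3% of the control sum. Both differences therefore rest on the smaller part of the MSH6 sum in each antimir pair library. With coding transcripts alone the precursor pair also lay apart, at 4.84 against 6.54 FPKM, a difference of -0.41, while its length-weighted difference was -0.02. The authors' deposited table called 1 MSH6 transcript with the precursor, ENST00000538136, higher at 0.643 against 0.202 FPKM (q = 0.00092). No MSH6 transcript was called in the antimir pair, and the length-weighted difference between the separately normalised controls was as large, 0.91. MSH3, which recognises larger loops, was lower in both by sums at 11.5, 12.0, 10.02 and 11.9 FPKM (-0.08 and -0.19), and PMS1, a further MutL protein, was level at 38.6, 37.3, 25.3 and 25.0.

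Of the 5 checkpoint members, only ATM differed by over 0.3. ATM, the kinase activated by double-strand breaks, stood at 35.8 and 49.6 FPKM in the precursor pair and 34.6 and 40.1 in the antimir pair. It was lower in the treated library of both, by -0.48 and -0.17, and by length-weighted level by -0.28 and 0.01. The sum is split over 27 annotated transcripts, and the 3 that the authors' deposited table called lower with the precursor were all retained introns, of which ENST00000531957 stood at 1.91 against 5.09 FPKM (q = 0.0038). CHEK2, the kinase ATM activates, stood at 45.1, 41.9, 33.8 and 28.04 FPKM, higher in both treated libraries by 0.08 and 0.30. By length-weighted level these became -0.10 and 0.06. ATR, CHEK1 and TP53BP1, the replication stress kinase, its target kinase and the chromatin mediator, differed by at most 0.11 in size in both comparisons.

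**Figure D4:**
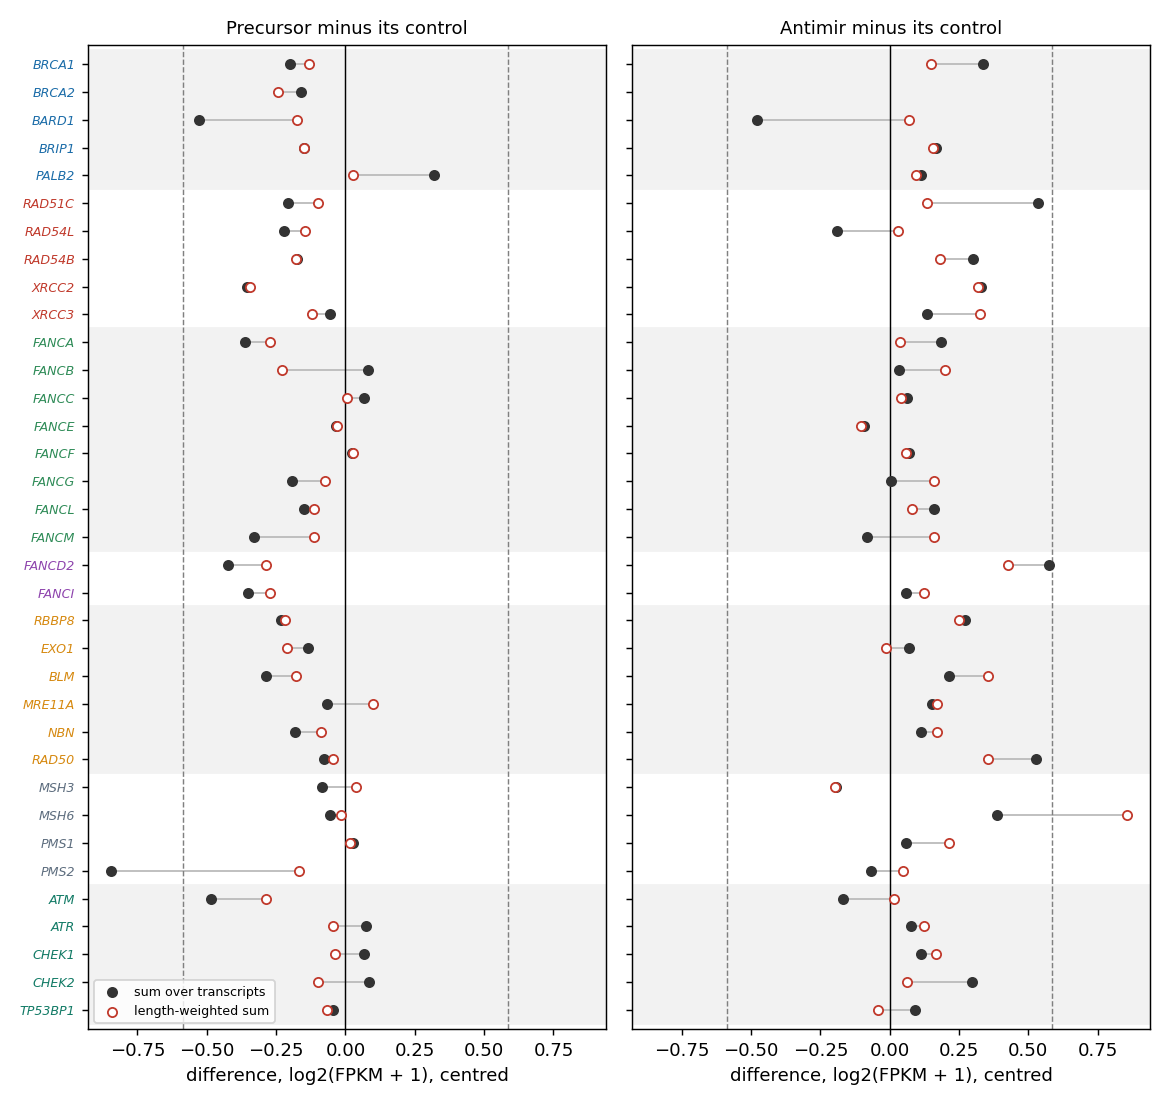
Difference of each member from its control on the centred log2(FPKM + 1) scale, for the precursor (left) and the antimir (right), ordered by role. Filled points are transcript sums and open points length-weighted sums, the dashed lines mark 1.5-fold, and only PMS2 (left, filled) and MSH6 (right, open) lie outside them.

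On single transcripts, the authors' deposited table called 61 of 308 tested member transcripts with the precursor (19.8%), against 13.6% of all 78175 tested. Of these 20 were higher (background 6.91%) and 41 lower (background 6.66%), spread over 25 members, and 11 members had calls in both directions. In 10 of the calls 1 library was at 0. Among the 195 tested transcripts at 1 FPKM or more in both libraries 33 were called, 6 higher and 27 lower, in 16 members, against 5.30% higher and 4.98% lower of all 46334 such transcripts. In the antimir comparison 0 of 251 tested member transcripts were called by Cuffdiff in the authors' deposited table, against 0.414% of 62029 (0.243% higher and 0.171% lower), with 10 at an unadjusted p under 0.05 and a lowest q of 0.26 in FANCL. Protein-coding transcripts made up 49.7% and 46.4% of the members' FPKM in the precursor pair and 58.4% and 59.1% in the antimir pair, and transcripts under 300 bases 12.97%, 17.04%, 3.71% and 4.93% in the same order. The tables also hold 34 whole-locus entries of the members, named by gene and not by transcript, which the sums leave out. They added up to 4.55 and 6.29 FPKM in the precursor pair and 6.09 and 5.46 in the antimir pair. The authors' deposited table called 6 of the 8 tested with the precursor, against 30.8% of such entries over all genes with transcripts, and 0 of 7 with the antimir, against 0.148%.

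The 4 members with a seed match were all below 0 with the precursor by sums (median -0.27, against -0.15 for the 31 without), where all genes with a match had a median of -0.02 and those without 0.01. With the antimir all 4 were above 0 (median 0.11, as for the 30 without). By length-weighted levels 3 of 4 were below 0 with the precursor (median -0.17, against -0.11) and 4 of 4 above with the antimir (median 0.14, as for those without). The part of the seed in these differences was not tested. Within a gene, the transcripts that carry the site can be set beside those that do not. In FANCA those with the site differed by -0.19 with the precursor and those without by -0.37, and in FANCI by -0.22 and -0.36, with the smaller difference in the carriers. In MRE11A the carrier was higher, by 0.70, and the others lower, by -0.23. In FANCG the 3 transcripts with the site stood at 7.62 against 9.54 FPKM (-0.31) and the matched ones without it at 8.26 against 8.15 (-0.0049). With the antimir, carriers and others differed by -0.03 and 0.24 in FANCA and 0.11 and 0.05 in FANCI. The values were 0.03 and 0.63 in MRE11A and 0.28 and -0.19 in FANCG. The FANCI transcripts without the site include the 233-base ENST00000565522, which held 31.7% and 35.7% of the gene's sum in the precursor pair.

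Members with an E2F-type word had a median of -0.24 with the precursor (7 of 8 below 0) and those without one -0.11 (17 of 24). With the antimir the medians were 0.13 and 0.11, and by length-weighted level 0.04 and 0.15, so the order of these 2 groups turned with the level used. Protein-coding genes whose longest transcript has 4000 bases or more had medians of 0.00086 with the precursor and -0.022 with the antimir, and the 21 and 20 members of that length -0.16 and 0.11. The part of length was not tested.

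Among the 45 other genes of these pathways the same directions were the more common. With the precursor 30 of 45 were below 0 (median -0.06), with 1 at least 1.5-fold higher and 0 lower, and with the antimir 24 of 44 were above 0 (median 0.03), with 0 higher and 1 lower. By length-weighted levels 34 of 44 were below 0 with the precursor (median -0.09) and 30 of 44 above 0 with the antimir (median 0.07). By coding transcripts their precursor median of -0.15 lay further from 0 than the members' -0.13, and their antimir median was 0.06 against 0.15. The largest differences with the precursor were RAD51B, a further strand exchange factor, at 13.6 against 7.61 FPKM (0.74), GEN1, a resolvase of crossed intermediates, at 18.9 against 28.04 (-0.57), and FAN1, a nuclease recruited by the Fanconi pair, at 21.8 against 27.1 (-0.32). With the antimir they were MDC1, a mediator at damaged chromatin, at 20.1 against 45.5 FPKM (-1.10), RAD52, a strand annealing protein, at 10.5 against 7.47 (0.48), and EME1, a nuclease subunit, at 7.47 against 5.30 (0.47). Other repair pathways had medians of 0.02 and -0.03 (end joining), -0.06 and -0.03 (base excision) and 0.0035 and -0.03 (nucleotide excision) with precursor and antimir. With the precursor 13 of 17 base excision genes were below 0, a share much like the members' 27 of 35, beside 3 of 8 in end joining and 9 of 18 in nucleotide excision. By length-weighted levels 13 of 15 base excision genes were below 0. With the antimir 3 of 9 end joining, 8 of 17 base excision and 7 of 17 nucleotide excision genes were above 0 by sums.

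Genes of S phase and proliferation moved beside the members with the precursor, where 18 of 20 were below 0 with a median of -0.12, and in the antimir comparison 12 of 20 were above 0 with a median of 0.03 (9 of 20 by length-weighted level, median -0.03). Their part in the members' values was not tested. In bulk RNA, fewer cells expressing a gene and less RNA per cell cannot be told apart. Of 17 interferon-induced genes, all 17 were at least 1.5-fold higher with the antimir (median 1.62), and 12 of the 14 past the filter were below 0 with the precursor (median -0.23). Their part in the members' differences was not tested either.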

How the data were processed

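RNA from 4 HT29 libraries was analysed from 2 deposited Cuffdiff tables, 1 per treated and control pair. FPKM per transcript, with p-values and q-values, were computed by the authors. The submitters' processing notes name bcl2fastq 1.8.3, TopHat2 2.0.11, Cufflinks 2.2.0, Cuffdiff and hg19. The annotation, settings and read depth are not given in the sources used here, so no counting interval can be given. Failed transcripts were left out, FPKM summed per gene, and log2(FPKM + 1) differences centred on the median of genes with a mean of at least 1 FPKM (Python 3.11.15, pandas 2.3.3), over all genes. The computation was tested on simulated data. Counts used 1.5-fold, with 0.32 on the log2 scale beside it. GENCODE 29 gave transcript types and lengths for 91.5% of 422 member transcripts, and the others were left out of the length-weighted and coding-only levels. The members and lists were chosen with earlier results of these data known. Values in every library are given for members differing by at least 0.3, the 2 most and 2 least abundant, and the largest of each role. Alternatives covered transcript choice, pseudocount, filter, centring and threshold. Length-weighted and coding-only levels, and counts above 0, were added after seeing the data.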

Additional observations from a re-analysis of the deposited data

How the results depend on the processing

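The median difference of the members kept its sign and moved by at most 0.1 under all 11 alternatives in both comparisons, and the count above 0 stayed within 1.5 times. Calls were few and moved more. With the precursor, 1 member was at least 1.5-fold lower. With only the most abundant transcript 2 were lower and 1 higher, with the threshold of 0.32 on the log2 scale 8 were lower, and with protein-coding transcripts only, or length-weighted sums, 0. With the antimir 0 members passed 1.5-fold either way. The count higher was 1 with failed transcripts kept, 2 with tested transcripts only, 3 with the most abundant transcript only (1 lower), 1 with a pseudocount of 0.1, 1 with protein-coding transcripts only, 1 with length-weighted sums and 6 at the threshold of 0.32 (1 lower). Members with a transcript called by the authors with the precursor numbered 25, and 16 with FPKM of at least 1 in both libraries. PALB2 turned from 0.32 to -0.027 with protein-coding transcripts only, and BARD1 with the antimir from -0.48 to 0.12 with those and 0.069 with length-weighted sums. The causes were not tested. Other members moved by over 0.1 mainly with length weighting (15 of 35 and 18 of 34), protein-coding transcripts only (17 of 35 and 16 of 34) or the most abundant transcript only (22 of 33 and 18 of 33). No paired analysis was possible because each group has 1 library. No library could be left out for the same reason. The unknown read depth limits all small differences.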
